A study of Mus musculus with 12 samples.

Results

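The 10 genes described here are Afp, H19, Igf2, Gpc3, Igf2bp3, Igf2bp2, Cd24a, Ly6d, Golm1 and Anxa2, mouse genes known as oncofetal or liver tumour markers. They were chosen by name, with earlier results of these livers known, and are 10 of the 24411 genes in the table of counts. Poly(A) RNA of whole livers was sequenced from 3 cont, 3 Atg7-KO and 3 Atg7-KO;p62T352A mice at 3 months of age. Every mouse carried floxed Atg7 alleles on a C57BL/6 background, and the cont mice carried no Cre. In Atg7-KO mice Cre is driven by the albumin promoter (Alb-Cre), so Atg7, an enzyme needed to form autophagosomes, is deleted in hepatocytes while the other cells of the liver keep the gene. Atg7-KO;p62T352A mice carry in addition, on both alleles, an alanine in place of threonine in the KEAP1-binding region of p62 (Sqstm1), a knock-in made by prime editing in embryonic stem cells derived from C57BL/6N. The question behind the design was what changes when the p62 bodies of autophagy-deficient hepatocytes no longer hold KEAP1, the negative regulator of NRF2. Another 3 livers are labelled as carrying the p62 mutation without Cre and were not analysed here.

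Oncofetal genes are active in the embryo or fetal liver, are silenced around birth, and return in many liver tumours or in regenerating liver. Alpha-fetoprotein and glypican-3 serve as markers of hepatocellular carcinoma, and the repressors Zhx2 and Zbtb20 are known to hold Afp, and in the case of Zhx2 also H19 and Gpc3, low in the adult mouse liver. H19 and Igf2 share an imprinted domain in which CTCF binding at a control region decides which of them is expressed from each parental allele. The remaining markers mark progenitor or duct-like cells (Cd24a), B-lineage and squamous cells (Ly6d), the Golgi membrane protein GP73 (Golm1), and a calcium-dependent membrane-binding protein (Anxa2).

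Values are normalized CPM (counts per 1e6 counts of the library, scaled by edgeR's TMM factors), and errors are SD over 3 mice. Log2 fold changes, their standard errors (SE) and FDR values come from edgeR's quasi-likelihood test fitted over 13922 genes, with Benjamini-Hochberg adjustment over all of them. A gene is said to have risen or fallen where the FDR was under 0.05 and the fold change over 1.5. Library totals ranged from 9671073 to 23285134 counts for cont, from 16157275 to 18480541 for Atg7-KO and from 16133626 to 17357183 for Atg7-KO;p62T352A mice. The top 20 genes by count held 21.1% to 31.2% of a cont library, 16.4% to 17.0% of an Atg7-KO library and 23.4% to 26.4% of an Atg7-KO;p62T352A library. Cont mouse 1 was the deepest library and had the highest of those shares. The mouse numbered 1 of each genotype had 7 to 28 counts of Xist, the RNA of the inactive X chromosome, while the mice numbered 2 and 3 had 8578 to 18335. By this measure the mice numbered 1 were male and those numbered 2 and 3 female, so sex cannot be told apart from mouse number 1. The part of sex in the values was not tested. With the mice numbered 2 and 3 alone, 9, 8 and 2 of the 10 markers were called in Atg7-KO against cont, Atg7-KO;p62T352A against Atg7-KO and Atg7-KO;p62T352A against cont, compared with 9, 9 and 3 in all mice. Without cont mouse 1 the numbers were 9, 9 and 4.

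Atg7 itself stood at 46.4, 44.2 and 55.4 normalized CPM in cont mice 1, 2 and 3, at 10.1, 9.57 and 12.0 in Atg7-KO mice and at 29.7, 27.4 and 29.5 in Atg7-KO;p62T352A mice. It fell by 2.20 on the log2 scale in Atg7-KO against cont (SE 0.17, FDR = 2.55e-05), as the genotype label states. In Atg7-KO;p62T352A livers it was 2.73-fold above Atg7-KO (FDR = 0.000164) and lower than cont by a log2 difference of -0.75 (FDR = 0.0206), and without any single Atg7-KO;p62T352A mouse the last difference had an FDR of 0.0524 to 0.0700. Summed hepatocyte markers were also lowest in Atg7-KO livers (values are given with the cell type markers), and their part in the Atg7 values was not tested. In bulk RNA, fewer cells of a type and less RNA per cell cannot be told apart.

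Promoter sequences from RefSeq were at hand for 7 of the 10 genes, and not for H19, Cd24a and Ly6d. The 250 bases before the RefSeq start are printed 5′ to 3′ for Afp, for its neighbour Alb, which moved in the opposite direction, for Anxa2, which holds an AP-1 motif, and for Gpc3, which had the largest fall in Atg7-KO;p62T352A against Atg7-KO. Capitals mark the motifs that were searched on both strands, namely TGACNNNGC (core of the antioxidant response element), TGANTCA (AP-1) and the core promoter letters TATAAA. Coordinates are GRCm38.p6, chr5:90490464-90490713 on the plus strand for Afp, chr5:90460620-90460869 on the plus strand for Alb, chr9:69453433-69453682 on the plus strand for Anxa2 and chrX:52613975-52614224 on the minus strand for Gpc3.
Afp: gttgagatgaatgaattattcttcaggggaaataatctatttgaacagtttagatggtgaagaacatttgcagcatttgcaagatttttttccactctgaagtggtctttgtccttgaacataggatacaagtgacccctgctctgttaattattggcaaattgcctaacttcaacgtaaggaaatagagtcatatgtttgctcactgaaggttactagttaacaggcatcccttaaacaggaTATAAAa
Alb: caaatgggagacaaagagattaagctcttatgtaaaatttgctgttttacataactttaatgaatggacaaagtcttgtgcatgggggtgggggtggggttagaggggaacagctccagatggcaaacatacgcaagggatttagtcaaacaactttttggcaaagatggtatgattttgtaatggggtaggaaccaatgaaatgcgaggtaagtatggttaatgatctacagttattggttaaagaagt
Anxa2: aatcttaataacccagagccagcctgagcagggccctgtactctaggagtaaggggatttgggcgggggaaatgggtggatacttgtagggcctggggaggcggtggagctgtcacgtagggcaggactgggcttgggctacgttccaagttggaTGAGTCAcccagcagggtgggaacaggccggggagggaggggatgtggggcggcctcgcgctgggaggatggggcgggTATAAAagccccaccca
Gpc3: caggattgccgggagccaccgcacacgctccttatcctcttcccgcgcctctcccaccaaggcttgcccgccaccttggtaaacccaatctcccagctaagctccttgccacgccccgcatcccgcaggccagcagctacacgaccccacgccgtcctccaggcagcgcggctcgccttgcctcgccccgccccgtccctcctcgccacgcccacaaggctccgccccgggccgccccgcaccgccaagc
In windows that reach from 250 bases before to 50 bases after the start, counted so that bases before it are negative, Afp had TATAAA at -7. Anxa2 had the AP-1 letters TGAGTCA at -95 and TATAAA at -17. Golm1 had TATAAA on the opposite strand at -185, and 1 of the Igf2 windows had TGACNNNGC on the opposite strand at 2. None of the 3 motifs was in the windows of Alb, Gpc3, Igf2bp2 or Igf2bp3, which says only that these letters were not there. Of 32851 mouse promoter windows of this length, 12.4% held TGACNNNGC, 7.81% TGANTCA and 13.6% TATAAA. The GC content of the windows was 40.0% for Afp, 40.0% for Alb, 63.7% for Anxa2 and 70.7% for Gpc3.

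In Atg7-KO against cont, 9 of the 10 markers rose and none fell, while Igf2 did not pass the test. The rises ran from a log2 fold change of 1.54 for Igf2bp2 to 8.15 for Ly6d, and the median over the 10 was 3.55 beside -0.03 over all tested genes. Of all tested genes 21.6% rose and 22.1% fell in this comparison. In Atg7-KO;p62T352A against Atg7-KO, 8 markers fell, Igf2 rose and Igf2bp2 missed both thresholds, with a median of -2.97 beside 0.0021 over all tested genes, of which 24.7% rose and 26.2% fell. In Atg7-KO;p62T352A against cont, Ly6d, Golm1 and Igf2bp2 rose and no marker fell, with a median of 0.95 beside 0.0044 over all tested genes, of which 6.25% rose and 5.34% fell. These comparisons share mice, so their fold changes are not independent of each other, and they are given side by side. All 10 markers passed edgeR's filter on low counts, which needed 0.609 CPM in 3 mice. Of them, 6 were above that level in every mouse, and H19, Gpc3 and Igf2bp3 were above it in all mice of 1 genotype only, Atg7-KO. Outside Atg7-KO, H19 was above it in 1 Atg7-KO;p62T352A mouse and Gpc3 in 1 cont mouse. H19 and Gpc3 thus passed through the group in which they were high. Igf2bp3 was also above it in 1 cont and 2 Atg7-KO;p62T352A mice.

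**Figure D1:**
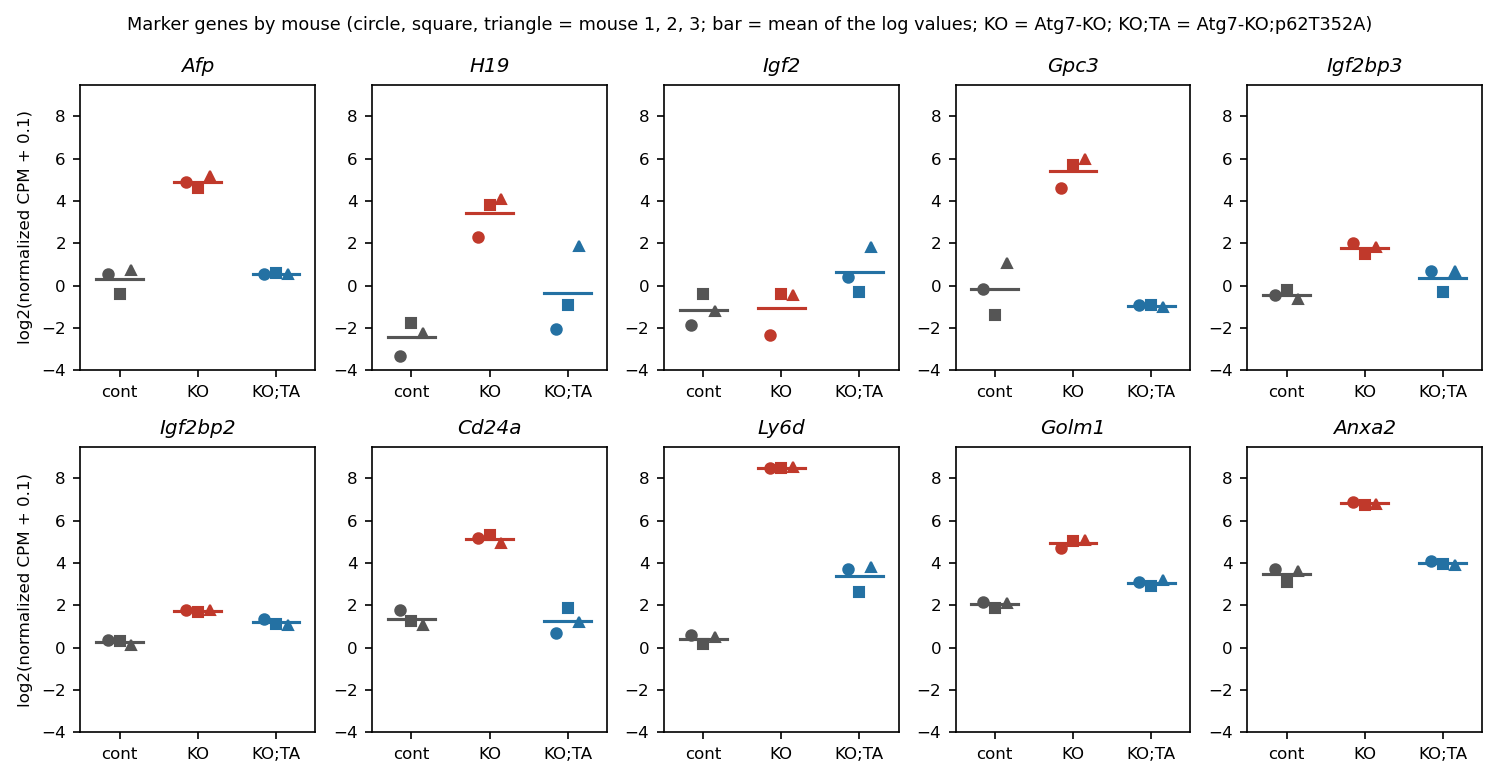
Levels of the 10 markers in each of the 9 livers, as log2 of normalized CPM plus 0.1, with 1 symbol per mouse (circle, square and triangle for mice 1, 2 and 3) and a bar at the mean of the log values. KO stands for Atg7-KO and KO;TA for Atg7-KO;p62T352A. Of the markers 9 rose in Atg7-KO against cont and Igf2 did not, beside 21.6% of all tested genes that rose.

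**Figure D2:**
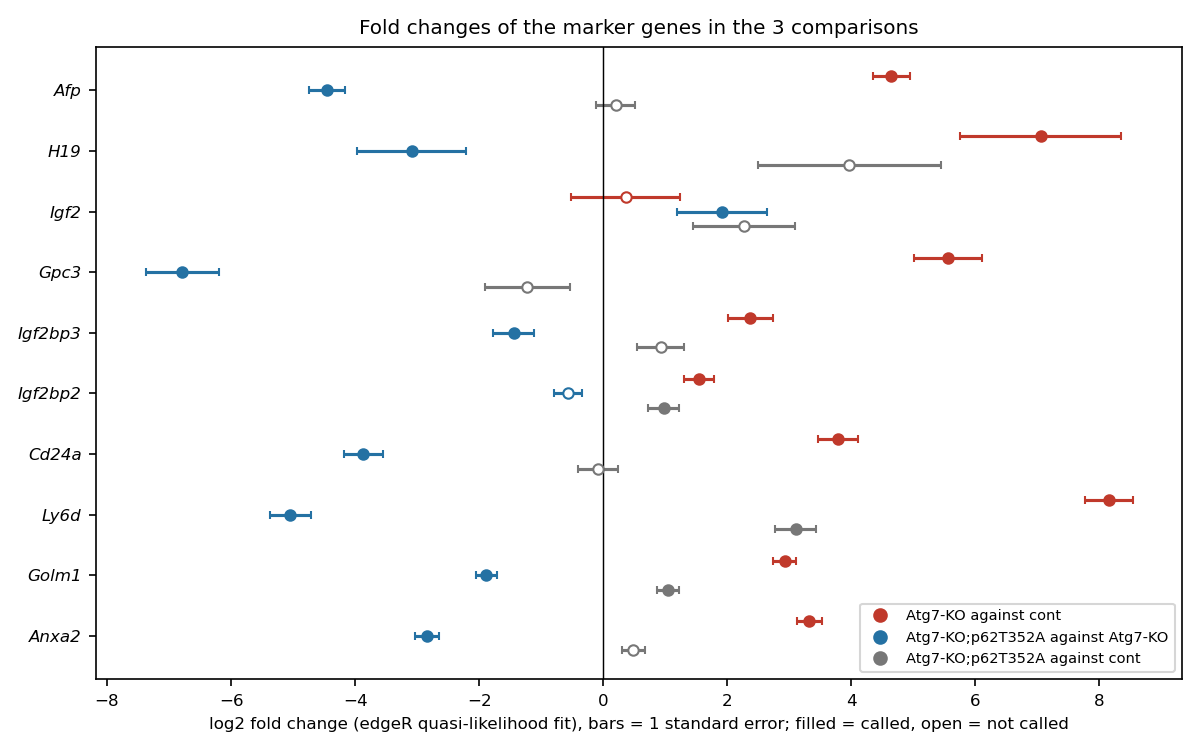
Log2 fold change of each marker in the 3 comparisons, with bars of 1 SE and filled symbols where the FDR was under 0.05 and the fold change over 1.5. Rises in Atg7-KO against cont (red) run from 1.54 to 8.15, 8 filled symbols of Atg7-KO;p62T352A against Atg7-KO (blue) lie below 0, and the H19 values against cont rest on 3 counts in cont.

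Afp (ENSMUSG00000054932.6, GRCm38 chr5:90490737-90508907, plus strand, 15 exons) encodes alpha-fetoprotein, the main serum protein of the fetus. It stood at 1.38, 0.662 and 1.54 normalized CPM in cont mice 1, 2 and 3, at 30.1, 24.2 and 36.3 in Atg7-KO mice and at 1.36, 1.40 and 1.37 in Atg7-KO;p62T352A mice. Every Atg7-KO liver was above every other liver, and the cont and Atg7-KO;p62T352A livers overlapped. Afp rose 25.0-fold in Atg7-KO against cont (log2 4.65, SE 0.30, FDR = 1.38e-05) and fell 21.8-fold in Atg7-KO;p62T352A against Atg7-KO (log2 -4.45, SE 0.29, FDR = 1.91e-05). The difference between Atg7-KO;p62T352A and cont was 0.20 on the log2 scale (SE 0.31, FDR = 0.727), and without cont mouse 2 it was -0.14.

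The other genes of the albumin family, which lie with Afp on chromosome 5, did not follow it. Alb, serum albumin, whose start is 29840 bases from that of Afp, fell in Atg7-KO against cont (log2 -1.26, FDR = 0.00959) and rose in Atg7-KO;p62T352A against Atg7-KO (log2 1.60, FDR = 0.00255). With the mice numbered 2 and 3 alone the fall of Alb was -0.88 and no longer called. Afm, the vitamin E carrier afamin, fell by 1.98 on the log2 scale in Atg7-KO against cont (FDR = 0.000247) and rose by 1.56 in Atg7-KO;p62T352A against Atg7-KO (FDR = 0.000643). Gc, the vitamin D binding protein, had a log2 difference of -0.31 in Atg7-KO against cont (FDR = 0.283) and rose by 0.61 in Atg7-KO;p62T352A against Atg7-KO (FDR = 0.0453), a call lost in 14 of the alternatives, DESeq2 among them. As a ratio to Alb in parts per 1e6, Afp stood at 15.0, 12.9 and 34.7 in cont, 1142, 885 and 1470 in Atg7-KO and 18.2, 16.5 and 17.6 in Atg7-KO;p62T352A livers. The Atg7-KO livers thus stood apart on this scale as well.

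Gpc3 (ENSMUSG00000055653.13, GRCm38 chrX:52272426-52613950, minus strand, 8 exons) encodes glypican-3, a heparan sulfate proteoglycan held at the cell surface by a lipid anchor. It stood at 0.802, 0.284 and 1.98 normalized CPM in cont mice 1, 2 and 3, at 24.3, 52.5 and 62.3 in Atg7-KO mice and at 0.428, 0.420 and 0.392 in Atg7-KO;p62T352A mice. In counts, the Atg7-KO;p62T352A livers held 6 each and the cont livers 14, 3 and 18, while Atg7-KO livers held 503, 1278 and 1461. Gpc3 rose 47.3-fold in Atg7-KO against cont (log2 5.56, SE 0.55, FDR = 8.43e-05), and without cont mouse 3 the log2 fold change was 6.28. It fell 110-fold in Atg7-KO;p62T352A against Atg7-KO (log2 -6.79, SE 0.59, FDR = 5.69e-05). Atg7-KO;p62T352A and cont livers overlapped (log2 -1.22, SE 0.68, FDR = 0.275), and the difference was -0.50 without cont mouse 3.

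Among the other glypicans, 4 of 5 were tested, and in the fit of all mice Gpc6 alone was called in either of those comparisons. This was 25% of the 4 rising in Atg7-KO against cont and 25% falling in Atg7-KO;p62T352A against Atg7-KO. Of all tested genes 21.6% and 26.2% did so. Gpc6 held 25, 8 and 13 counts in cont, 144, 154 and 128 in Atg7-KO and 12, 18 and 31 in Atg7-KO;p62T352A livers. It rose in Atg7-KO against cont (log2 2.35, FDR = 0.000764) and fell in Atg7-KO;p62T352A against Atg7-KO (log2 -2.17, FDR = 0.00081). The median of the 4 was 1.28 in the former and 0.31 in the latter comparison. Gpc1, another cell surface glypican, had a log2 difference of 1.20 in Atg7-KO against cont (FDR = 0.0635). It was called higher by DESeq2 (FDR = 0.0407), in 4 other alternatives and without cont mouse 1 (log2 1.94, FDR = 0.00286). Gpc2, with 1 to 5 counts in cont, was called higher without cont mouse 2 (log2 2.56, FDR = 0.0463). At a minimum of 10 counts in every mouse, Gpc3 and Gpc6 were not tested.

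H19 (ENSMUSG00000000031.16, GRCm38 chr7:142575529-142578143, minus strand, 5 exons) is a long non-coding RNA expressed from the maternal allele. It held 0, 2 and 1 counts in cont mice 1, 2 and 3, 98, 343 and 403 in Atg7-KO mice and 2, 6 and 55 in Atg7-KO;p62T352A mice. In normalized CPM these were 0.0997 ± 0.0950, 12.0 ± 6.48 and 1.38 ± 1.92 (SD, n = 3). Atg7-KO mouse 1 was well below the other Atg7-KO mice and still above every mouse of the other genotypes, and Atg7-KO;p62T352A mouse 3 alone made up most of the counts of its group.
With so few counts in cont, the ratio of Atg7-KO to cont at equal depth was 153 with a 95% counting interval of 52.0 to 741, which covers counting error only, and the edgeR call was a rise (FDR = 0.00212). The fitted log2 fold change was 7.06 with all mice, 6.23 without cont mouse 1 and 7.96 without cont mouse 2. H19 fell 8.52-fold in Atg7-KO;p62T352A against Atg7-KO (log2 -3.09, SE 0.88, FDR = 0.0145). That log2 difference was -5.37 without Atg7-KO;p62T352A mouse 3, and the FDR was 0.0509 without Atg7-KO mouse 3 and 0.0534 without Atg7-KO;p62T352A mouse 2. The ratio of Atg7-KO;p62T352A to cont was 17.9 (95% counting interval 5.85 to 89.0), and edgeR did not call it (log2 3.97, FDR = 0.112). That log2 difference was 1.68 without Atg7-KO;p62T352A mouse 3, 3.16 without cont mouse 1 and 4.88 without cont mouse 2.

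Igf2 (ENSMUSG00000048583.16, GRCm38 chr7:142650766-142666816, minus strand, 4 exons) encodes a fetal growth factor and lies 72622 bases from H19. It held 3, 7 and 3 counts in cont mice 1, 2 and 3, 2, 16 and 15 in Atg7-KO mice and 17, 10 and 53 in Atg7-KO;p62T352A mice. In normalized CPM these were 0.388 ± 0.250, 0.465 ± 0.319 and 1.79 ± 1.47 (SD, n = 3). Cont and Atg7-KO livers overlapped, and the 3 Atg7-KO;p62T352A livers were above all others by a small margin. Igf2 did not differ detectably between Atg7-KO and cont at this depth (log2 0.36, SE 0.88, FDR = 0.757), and without cont mouse 1 the difference was -0.09. It rose 3.77-fold in Atg7-KO;p62T352A against Atg7-KO (log2 1.91, SE 0.73, FDR = 0.0475). That call was lost without any 1 of 6 mice, namely cont mouse 3 (FDR = 0.0560), Atg7-KO mice 1, 2 and 3 (0.128, 0.0774 and 0.0804) and Atg7-KO;p62T352A mice 1 and 3 (0.0605 and 0.277), and the log2 difference without Atg7-KO;p62T352A mouse 3 was 1.01. It was also lost with upper-quartile scaling (FDR = 0.0597) and with the mice numbered 2 and 3 alone (FDR = 0.0595). Against cont the difference was 2.28 (SE 0.82, FDR = 0.104), and 1.36 without Atg7-KO;p62T352A mouse 3. The Igf2 counts are uncertain, since 60.25% of the read-length stretches of its transcript are also found in the overlapping gene Gm49394, and the antisense gene Igf2os overlaps it.

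Igf2bp3 and Igf2bp2 encode RNA-binding proteins that bind IGF2 mRNA among other transcripts. Igf2bp3 (ENSMUSG00000029814.10, GRCm38 chr6:49085223-49214957, minus strand, 15 exons) stood at 0.630, 0.756 and 0.550 normalized CPM in cont mice 1, 2 and 3, at 3.97, 2.75 and 3.41 in Atg7-KO mice and at 1.5, 0.70 and 1.5 in Atg7-KO;p62T352A mice. The Atg7-KO livers were the highest, and the cont and Atg7-KO;p62T352A livers overlapped. It rose 5.17-fold in Atg7-KO against cont (log2 2.37, SE 0.36, FDR = 0.000815) and fell 2.72-fold in Atg7-KO;p62T352A against Atg7-KO (log2 -1.44, SE 0.33, FDR = 0.00517). Against cont the Atg7-KO;p62T352A livers differed by 0.93 (SE 0.38, FDR = 0.149).
Igf2bp2 (ENSMUSG00000033581.17, GRCm38 chr16:22059009-22163299, minus strand, 16 exons) stood at 1.20, 1.13 and 0.989 in cont, 3.34, 3.16 and 3.33 in Atg7-KO and 2.5, 2.10 and 2.02 normalized CPM in Atg7-KO;p62T352A livers. None of the 3 genotypes overlapped another, and Atg7-KO;p62T352A lay between the others. Igf2bp2 rose 2.92-fold in Atg7-KO against cont (log2 1.54, SE 0.24, FDR = 0.000913). In Atg7-KO;p62T352A against Atg7-KO the log2 difference of -0.57 was just short of both thresholds (SE 0.22, FDR = 0.0551), and it passed with DESeq2's size factors (FDR = 0.0474) and with upper-quartile scaling (FDR = 0.0236). Igf2bp2 was 1.97-fold higher in Atg7-KO;p62T352A than in cont (log2 0.98, SE 0.25, FDR = 0.0343), a call lost in 12 of the alternatives, among them DESeq2, no filter and every single mouse left out except cont mouse 1, with FDR values of 0.0547 to 0.0993.

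Ly6d (ENSMUSG00000034634.7, GRCm38 chr15:74762056-74763620, minus strand, 3 exons) encodes a small lipid-anchored surface protein of the Ly6 family. It stood at 1.43, 1.04 and 1.32 normalized CPM in cont mice 1, 2 and 3, at 357, 367 and 368 in Atg7-KO mice and at 13.1, 6.02 and 14.0 in Atg7-KO;p62T352A mice. The genotypes did not overlap. Ly6d rose 284-fold in Atg7-KO against cont (log2 8.15, SE 0.39, FDR = 5e-06) and fell 33.0-fold in Atg7-KO;p62T352A against Atg7-KO (log2 -5.04, SE 0.33, FDR = 1.91e-05). It was still 8.60-fold above cont in Atg7-KO;p62T352A livers (log2 3.10, SE 0.33, FDR = 0.00322).
The 4 other Ly6 genes that were tested, of 8 listed, all rose in Atg7-KO against cont (median 3.27). All 4 fell in Atg7-KO;p62T352A against Atg7-KO (median -2.96), and 2 of them were higher in Atg7-KO;p62T352A than in cont. Of all tested genes 21.6% rose in the first, 26.2% fell in the second and 6.25% rose in the third of these comparisons. Ly6a, the stem cell antigen Sca-1, rose by a log2 fold change of 5.53 (FDR = 1.9e-05) from 222, 121 and 138 counts in cont to 10512, 15115 and 16163 in Atg7-KO livers, and Atg7-KO;p62T352A livers held 733, 605 and 1640. Ly6c1, a marker of endothelial and other cells, rose by 3.80 in Atg7-KO against cont (FDR = 0.000524) and fell by 4.48 in Atg7-KO;p62T352A against Atg7-KO (FDR = 0.000241), and without cont mouse 2 its rise was 4.66. Ly6h, Ly6i and Ly6k had too few counts to be tested and Ly6g was not in the table. Ly6 genes resemble each other in sequence, so that reads may be shared among them.

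Cd24a (ENSMUSG00000047139.9, GRCm38 chr10:43578284-43584265, plus strand, 2 exons) encodes a short, heavily glycosylated surface protein. It stood at 3.32, 2.27 and 1.98 normalized CPM in cont mice 1, 2 and 3, at 36.0, 39.5 and 31.2 in Atg7-KO mice and at 1.5, 3.57 and 2.22 in Atg7-KO;p62T352A mice. The Atg7-KO livers stood apart and the other genotypes overlapped. Cd24a rose 13.8-fold in Atg7-KO against cont (log2 3.78, SE 0.32, FDR = 3.98e-05) and fell 14.6-fold in Atg7-KO;p62T352A against Atg7-KO (log2 -3.87, SE 0.32, FDR = 4.1e-05). Atg7-KO;p62T352A and cont differed by -0.08 (SE 0.32, FDR = 0.90), with a sign that changed with the mice included.

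Golm1 (ENSMUSG00000021556.12, GRCm38 chr13:59634626-59675811, minus strand, 10 exons) stood at 4.35, 3.59 and 4.18 normalized CPM in cont mice 1, 2 and 3, at 26.4, 32.7 and 33.6 in Atg7-KO mice and at 8.5, 7.57 and 9.01 in Atg7-KO;p62T352A mice. No genotype overlapped another, with Atg7-KO;p62T352A in between. Golm1 rose 7.61-fold in Atg7-KO against cont (log2 2.93, SE 0.18, FDR = 1.35e-05) and fell 3.69-fold in Atg7-KO;p62T352A against Atg7-KO (log2 -1.89, SE 0.17, FDR = 6.62e-05). It remained 2.06-fold above cont in Atg7-KO;p62T352A livers (log2 1.04, SE 0.18, FDR = 0.01).

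Anxa2 (ENSMUSG00000032231.14, GRCm38 chr9:69453620-69491795, plus strand, 13 exons) encodes annexin A2, which pairs with S100A10 at membranes. It stood at 12.9, 8.42 and 12.4 normalized CPM in cont mice 1, 2 and 3, at 119, 108 and 112 in Atg7-KO mice and at 16.9, 15.4 and 15.0 in Atg7-KO;p62T352A mice. The genotypes did not overlap, and Atg7-KO;p62T352A lay close above cont. Anxa2 rose 10.0-fold in Atg7-KO against cont (log2 3.32, SE 0.20, FDR = 1.28e-05) and fell 7.16-fold in Atg7-KO;p62T352A against Atg7-KO (log2 -2.84, SE 0.19, FDR = 2.09e-05). All 3 Atg7-KO;p62T352A livers were above all cont livers, but the log2 difference of 0.48 was not called (SE 0.19, FDR = 0.123), while without cont mouse 1 it was 0.60 and called (FDR = 0.0310).
Of the other annexins and S100a10, 10 of 12 were tested. In Atg7-KO against cont 7 (70%) rose and none fell (median 0.98), beside 21.6% and 22.1% of all tested genes. None rose and 5 (50%) fell in Atg7-KO;p62T352A against Atg7-KO (median -0.62), beside 24.7% and 26.2% of all tested genes. Anxa5, which binds phosphatidylserine, rose by 3.00 on the log2 scale in Atg7-KO (FDR = 1.4e-05) and fell by 2.39 in Atg7-KO;p62T352A against Atg7-KO (FDR = 3.76e-05). Anxa13, an annexin of epithelial cells, rose by 2.60 (FDR = 0.000304) and fell by 1.11 (FDR = 0.0112) in the same comparisons.

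Levels of the markers can be compared with each other only per length of transcript. Per kilobase of the longest annotated transcript, Anxa2 had the highest level in cont livers (7.77 CPM per kb), above every other marker in every mouse. It was followed by Ly6d (1.70), Cd24a (1.39) and Golm1 (1.02), whose ranges overlapped from one to the next, then by Afp, Gpc3 and Igf2bp2, and at the lower end by Igf2bp3, Igf2 and H19 (0.0436). In Atg7-KO livers the order began with Ly6d at 489 CPM per kb and Anxa2 at 78.0, each apart from the next. Gpc3 (20.9), Cd24a (19.6) and Afp (14.6) overlapped from one to the next, Golm1 and H19 came after them, and Igf2bp2 (0.840), Igf2bp3 (0.777) and Igf2 (0.0984) were the lowest. In Atg7-KO;p62T352A livers Ly6d (14.8) and Anxa2 (10.9) were again highest, with overlapping ranges, and Gpc3 had the lowest mean (0.187), with a range that overlapped those of H19, Igf2 and Igf2bp3.

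**Figure D3:**
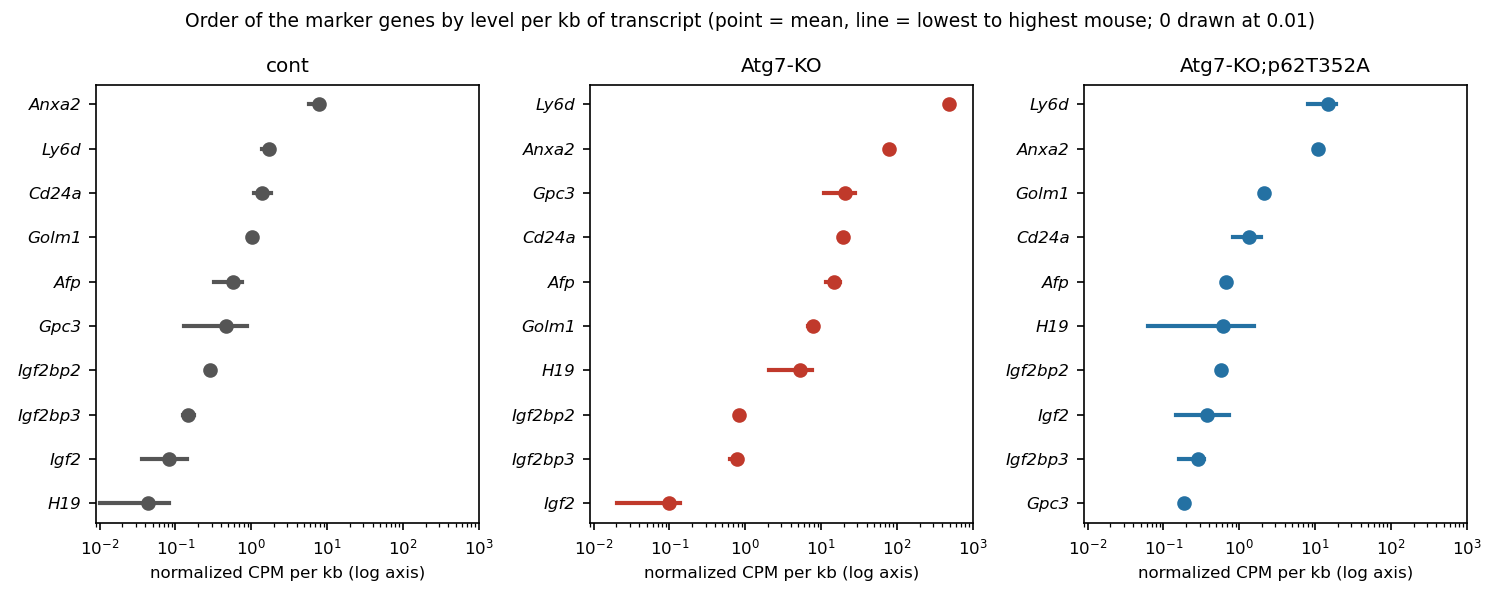
Levels of the 10 markers in CPM per kilobase of transcript (log axis) in the 3 genotypes, ordered within each, with a point at the mean and a line from the lowest to the highest mouse (0 drawn at 0.01). Ly6d moves from 1.70 in cont to 489 in Atg7-KO and 14.8 in Atg7-KO;p62T352A, and Gpc3 from 0.461 to 20.9 and 0.187.

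Other genes known from fetal liver or liver tumours were counted as a list of 28, of which 21 were tested. The list was chosen with earlier results of these livers known, and Anxa5, Epcam, Sox9, Dlk1, Peg10 and Igf2bp1 are also in other lists here. Of the 21 tested, 18 (85.7%) rose and 1 (4.76%) fell in Atg7-KO against cont (median 3.34), beside 21.6% and 22.1% of all tested genes. None rose and 15 (71.4%) fell in Atg7-KO;p62T352A against Atg7-KO (median -2.25), beside 24.7% and 26.2% of all tested genes. In Atg7-KO;p62T352A against cont 9 (42.9%) rose and none fell (median 1.41), beside 6.25% and 5.34% of all tested genes. Dlk1, Igf2bp1, Lin28b, Hmga2, Sall4, Trim71 and Dkk1 had too few counts to be tested. In Atg7-KO mice 1, 2 and 3, Hmga2 held 7, 10 and 11 counts, Dlk1 4, 6 and 5, and the others 0 or 1. In cont mice 1, 2 and 3, Hmga2 held 2, 5 and 4 counts and Dlk1 3, 1 and 1. Igf2bp1 held 2, 2 and 2 and Lin28b 1, 2 and 1 in cont, and both held 0 in every Atg7-KO mouse. The numbers that rose or fell leave these genes out. Tff3, a secreted trefoil peptide, held 29, 8 and 1 counts in cont, 4266, 2279 and 2599 in Atg7-KO and 258, 32 and 90 in Atg7-KO;p62T352A livers. It rose by 7.18 on the log2 scale in Atg7-KO against cont (FDR = 0.000322), or 8.21 without cont mouse 1. It fell by 3.95 in Atg7-KO;p62T352A against Atg7-KO (FDR = 0.00215), a difference of -5.07 without Atg7-KO;p62T352A mouse 1. Bex1 held 0, 1 and 0 counts in cont, 61, 67 and 55 in Atg7-KO and 11, 13 and 25 in Atg7-KO;p62T352A livers, a ratio of Atg7-KO to cont of 99.2 with a 95% counting interval of 17.6 to 3941. Its fall in Atg7-KO;p62T352A against Atg7-KO (log2 -1.26, FDR = 0.0231) was lost without any 1 of 5 mice, namely the 3 Atg7-KO mice and Atg7-KO;p62T352A mice 1 and 2 (FDR = 0.0526 to 0.0829). The gene that fell was Tert, the catalytic subunit of telomerase, which stood at 78, 232 and 302 counts in cont and 53, 80 and 59 in Atg7-KO livers (log2 -2.82, FDR = 0.00528), or -2.23 without cont mouse 3.

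**Figure D4:**
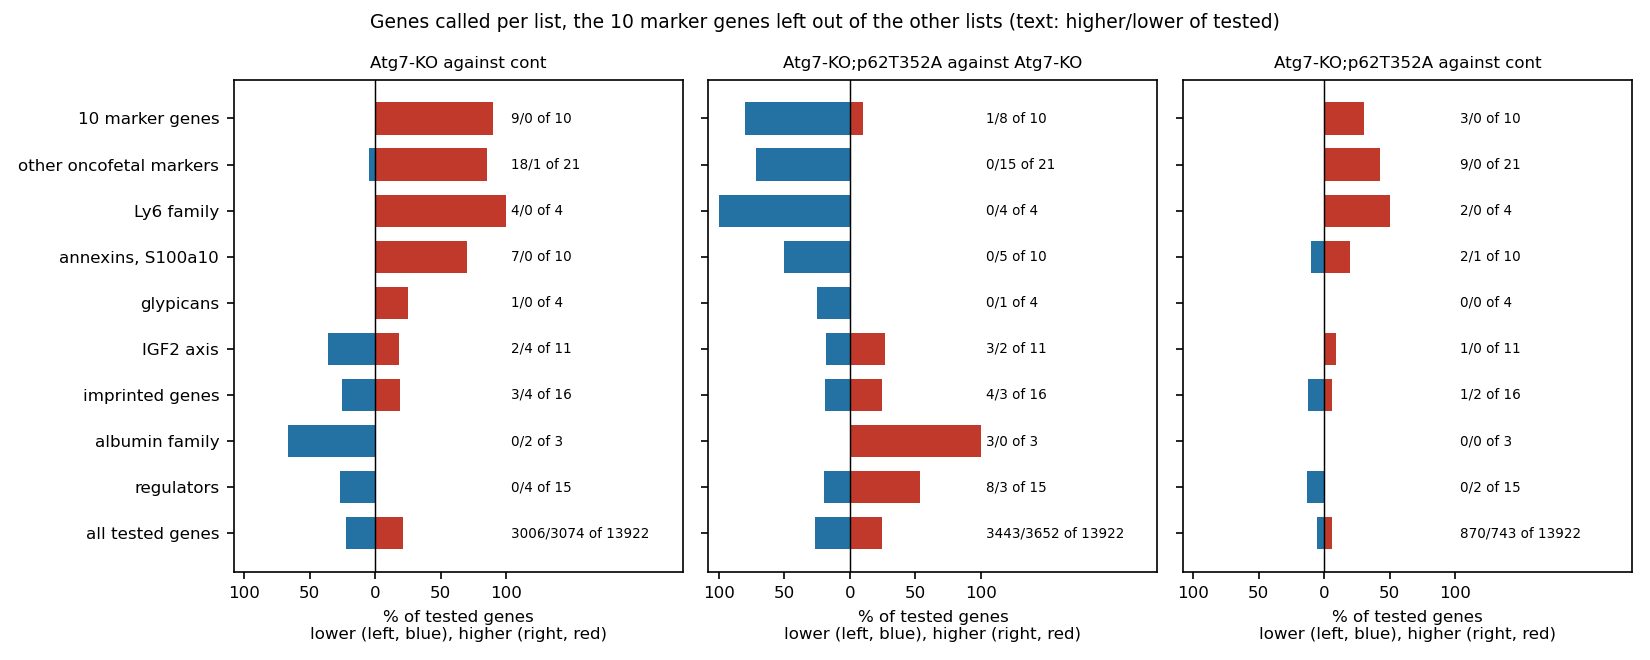
Share of the tested genes of each list that rose (red, right) or fell (blue, left) in the 3 comparisons, in percent. All tested genes form the bottom row, and the 10 markers are left out of the other lists. Of 28 other oncofetal and tumour markers listed, 21 were tested. In Atg7-KO against cont 18 of these rose, beside 21.6% of all tested genes. In the imprinted list 3 of 16 rose and 4 fell, near the shares of all tested genes (21.6% and 22.1%).

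The imprinted genes did not share a direction. Of 16 tested of 20, 3 rose and 4 fell in Atg7-KO against cont (median 0.10), and 4 rose and 3 fell in Atg7-KO;p62T352A against Atg7-KO (median 0.16), and without cont mouse 1 the former comparison had 11 calls in place of 7. With all mice, 18.8% rose and 25% fell in the former comparison, near the 21.6% and 22.1% of all tested genes. In the latter, 25% rose and 18.8% fell, beside 24.7% and 26.2% of all tested genes. Mest, a hydrolase expressed from the paternal allele, rose in Atg7-KO against cont (log2 1.49, FDR = 0.000501) and fell in Atg7-KO;p62T352A against Atg7-KO (log2 -2.27, FDR = 7.9e-05). Igf2r, the receptor that clears IGF2, also rose (log2 0.87, FDR = 0.00295) and fell (log2 -1.08, FDR = 0.000781). Meg3, a maternally expressed long non-coding RNA, held 53, 1324 and 437 counts in cont, 50, 67 and 70 in Atg7-KO and 1246, 1148 and 3001 in Atg7-KO;p62T352A livers. It fell in Atg7-KO against cont (log2 -4.42, FDR = 0.00659), by less without cont mouse 2 (log2 -3.24), and rose in Atg7-KO;p62T352A against Atg7-KO (log2 5.48, FDR = 0.0023). Kcnq1ot1, a paternally expressed antisense RNA, fell by 2.76 (FDR = 0.00834) and rose by 4.15 (FDR = 0.00111) in the same comparisons, with overlapping cont and Atg7-KO mice. Meg3 and Kcnq1ot1 were thus low in the genotype in which H19 was high, but they were also low in cont mouse 1, which had 0 counts of H19. In normalized CPM, Meg3 stood at 3.04 in cont mouse 1, beside 2.42 to 2.99 in Atg7-KO livers. Kcnq1ot1 stood at 5.96 in that mouse, beside 4.73 to 6.14 in Atg7-KO livers.

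Of 11 tested genes among the receptors and binding proteins of the IGFs and the remaining IGF2BP gene, 2 rose and 4 fell in Atg7-KO against cont (median -0.36), and 3 rose and 2 fell in Atg7-KO;p62T352A against Atg7-KO (median 0.49). In the former comparison this was 18.2% and 36.4%, beside 21.6% and 22.1% of all tested genes. In the latter it was 27.3% and 18.2%, beside 24.7% and 26.2%. Igfbp7, a secreted IGF-binding protein, rose by 1.37 (FDR = 0.000357) and then fell by 1.24 (FDR = 0.000488) on the log2 scale. Igf1, the main IGF of the adult liver, held 13024, 9767 and 8166 counts in cont, 3411, 4512 and 3489 in Atg7-KO and 21374, 19063 and 24153 in Atg7-KO;p62T352A livers. It fell in Atg7-KO against cont (log2 -2.36, FDR = 3.5e-05) and rose in Atg7-KO;p62T352A against Atg7-KO (log2 3.15, FDR = 1.91e-05). Igfbp5 fell in Atg7-KO against cont (log2 -2.04, FDR = 0.0179), a call lost without cont mouse 3 (log2 -1.04, FDR = 0.0648), Atg7-KO mouse 2 (FDR = 0.0659) or Atg7-KO mouse 3 (FDR = 0.0555).

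Factors known to regulate Afp, H19 or Gpc3 were all 15 tested. None rose and 4 fell in Atg7-KO against cont (median -0.39), and 8 rose and 3 fell in Atg7-KO;p62T352A against Atg7-KO (median 0.72), and without Atg7-KO mouse 2 the former comparison had 2 calls. The 4 that fell were 26.7% of the list, near the 22.1% of all tested genes. The 8 and 3 of the latter comparison were 53.3% and 20%, beside 24.7% and 26.2% of all tested genes. Zbtb20, a repressor of Afp, fell in Atg7-KO against cont (log2 -1.87, FDR = 0.00677) and rose in Atg7-KO;p62T352A against Atg7-KO (log2 2.82, FDR = 0.000768). Zhx2, a repressor of all 3 genes, had differences of -0.07 (FDR = 0.871) and -0.57 (FDR = 0.141), neither of them called. The activator Cebpb (log2 -1.31, FDR = 0.0129) and the nuclear receptor Nr2f2 (log2 -0.63, FDR = 0.0156) also fell in Atg7-KO against cont. The call of Cebpb was lost without Atg7-KO mouse 2, and that of Nr2f2 without cont mouse 3, Atg7-KO mouse 1 or Atg7-KO mouse 2.
In Atg7-KO;p62T352A against Atg7-KO, Cebpb (1.82), Nr2f2 (0.88), Hnf4a (0.73), Foxa3 (0.99), Cebpa (0.85) and Ctcf (0.72) were among those that rose beside Zbtb20, and Zhx1 (-0.98), Zhx3 (-0.86) and the nuclear receptor Nr5a2 (-1.09) fell, all as log2 fold changes. The calls of Foxa3 and Zhx1 were lost without any 1 of 5 and of 6 mice and that of Hnf4a without Atg7-KO mouse 1. Foxa1, Foxa2 and Trp53 were called in neither comparison with all mice. Some calls appeared only with fewer mice. In Atg7-KO against cont, without cont mouse 1, Zhx1 was called higher (log2 0.80, FDR = 0.00264) and Foxa2 lower (log2 -0.95, FDR = 0.00301), as both were with the mice numbered 2 and 3 alone (FDR = 0.0130 and 0.00377). Without cont mouse 3, Foxa3 (log2 -0.66, FDR = 0.0241) and Nr5a2 (log2 -0.69, FDR = 0.0425) were called lower. Foxa2 was called higher in Atg7-KO;p62T352A against Atg7-KO with the mice numbered 2 and 3 alone (log2 0.67, FDR = 0.0148). Trp53 differed by 0.05 (FDR = 0.861) between Atg7-KO and cont.

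The genes whose pattern was most like that of each marker were taken by the root mean square difference in centred log2 CPM (prior count 2) over the 9 mice. Since they were picked on these same mice, differences between genotypes that they share with a marker follow from the picking. They are no separate result about these genes. Those nearest to Afp were Lipn (0.301), Spatc1 (0.305) and Eps8l3 (0.355), all 3 with no count in any cont or Atg7-KO;p62T352A liver and 42 to 75 counts in each Atg7-KO liver. Their fitted fold changes in Atg7-KO against cont were 330, 314 and 301, beside 25.0 for Afp. The likeness therefore holds only on the scale with the prior count. Those nearest to Gpc3 were Abcc4, an efflux transporter (0.594), Mgst2, a microsomal glutathione S-transferase (0.696) and Ggt1, which cleaves extracellular glutathione (0.708). Abcc4 held 68, 36 and 50 counts in cont, 4754, 5449 and 5438 in Atg7-KO and 33, 36 and 66 in Atg7-KO;p62T352A livers, and, as for Gpc3, edgeR called no difference between Atg7-KO;p62T352A and cont.
H19 was followed by AI314278 (0.803), the mitotic kinase Aurkb (0.842) and Ly6a (0.850), and Igf2 by 2810001G20Rik (0.526), Fam132a (0.593) and Hipk2 (0.605). The genes nearest to Igf2bp3 were Susd3, Cd200r1 and Stx11 (0.215 to 0.228) and those nearest to Igf2bp2 were Setd8, Fam187b and Arl8a (0.129 to 0.155). Cd24a was followed by the tetraspanin Cd9 (0.208), Serpinb6a (0.257) and Naip2 (0.322). Ly6d was followed by Ubd, a ubiquitin-like modifier (0.460), Lrtm2 (0.609) and the macrophage elastase Mmp12 (0.744), all of which were higher in Atg7-KO;p62T352A than in cont. Golm1 was followed by Ska3 (0.168), Enc1 (0.206) and Arhgap11a (0.213), and Anxa2 by Haus8 (0.154), Maoa (0.174) and Plscr1 (0.213). The differences are read against each marker's own range over the mice, which went from 1.64 for Igf2bp2 to 8.31 for Ly6d on the log2 scale.

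Markers of several liver cell types moved with the genotypes, and their part in the values of the 10 genes was not tested. Of all tested genes 21.6% rose and 22.1% fell in Atg7-KO against cont, and 24.7% rose and 26.2% fell in Atg7-KO;p62T352A against Atg7-KO. The counts of markers below stand beside these shares. All 6 hepatocyte markers fell in Atg7-KO against cont, and 5 rose in Atg7-KO;p62T352A against Atg7-KO. Their summed level lay between 79842 and 136633 CPM in cont, between 36121 and 38420 in Atg7-KO and between 111027 and 129395 in Atg7-KO;p62T352A livers. It was the most abundant of the lists in every liver, and the labelled tissue is liver. All 6 markers of cycling cells rose in Atg7-KO against cont and fell in Atg7-KO;p62T352A against Atg7-KO. Their sums were 6.07 to 14.4 CPM in cont, 90.0, 139 and 154 in Atg7-KO mice 1, 2 and 3, and 10.5, 26.9 and 31.9 in Atg7-KO;p62T352A mice. The lowest of these sums among Atg7-KO livers was in mouse 1, which had the lowest H19, Igf2, Gpc3, Ly6d and Golm1 of its genotype but the highest Igf2bp3, Igf2bp2 and Anxa2. Afp was lowest in Atg7-KO mouse 2 and Cd24a in Atg7-KO mouse 3. The markers of 1 genotype thus did not share an order over the mice. The mouse numbered 1, male by the measure of Xist, also had the lowest cycling cell sum in cont (6.07) and in Atg7-KO;p62T352A livers (10.5). The part of sex in these values was not tested.
Of 6 macrophage markers 5 rose in Atg7-KO against cont and 5 fell in Atg7-KO;p62T352A against Atg7-KO, with sums of 267 to 346 in cont, 762 to 835 in Atg7-KO and 177 to 334 CPM in Atg7-KO;p62T352A livers. Of 6 stellate cell or fibroblast markers 4 rose and 4 fell in these comparisons, with sums of 106 to 120, 533 to 723 and 131 to 220. Of 6 cholangiocyte markers, among them the duct keratins Krt7 and Krt19, 4 rose and 3 fell, with sums of 27.1 to 42.6, 78.0 to 84.0 and 51.5 to 77.3 CPM. For each of these lists every Atg7-KO sum was above every cont sum.
Endothelial markers had sums of 254 to 318, 259 to 270 and 134 to 165 CPM, with 3 of 6 higher and 1 lower in Atg7-KO against cont and 4 lower in Atg7-KO;p62T352A against Atg7-KO. T or NK cell markers had sums of 3.38 to 8.79, 14.3 to 18.6 and 9.5 to 10.2 CPM, and 4 of 5 tested rose in Atg7-KO against cont. Neutrophil markers had sums of 2.20 to 2.93, 4.89 to 10.3 and 3.26 to 3.85 CPM (5 of 6 in the table), and 2 of 3 tested rose. B cell markers had sums of 5.62 to 20.7, 11.9 to 17.7 and 9.27 to 14.9 CPM, with none of 6 called in Atg7-KO against cont. Erythroid markers had sums of 101 to 426, 210 to 261 and 67.4 to 212 CPM. In Atg7-KO against cont 1 of 4 (25%) was lower, near the 22.1% of all tested genes. No marker in the table was at 0 in all mice of a genotype.

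**Figure D5:**
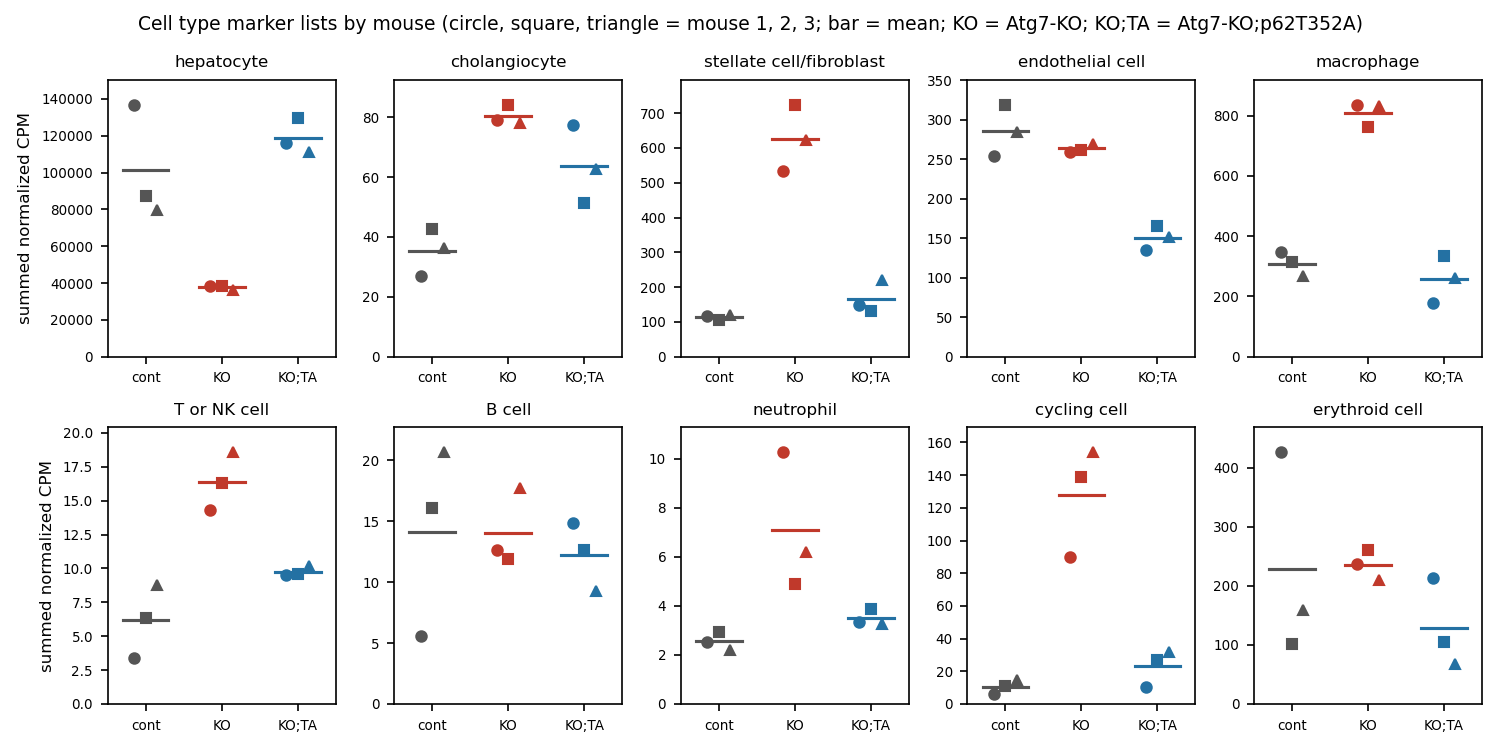
Summed normalized CPM of each cell type marker list (linear axes from 0) in each of the 9 livers, with circle, square and triangle for mice 1, 2 and 3 and a bar at the mean. KO stands for Atg7-KO and KO;TA for Atg7-KO;p62T352A. The cycling cell sums of Atg7-KO livers, 90.0 to 154 CPM, lie above all other livers, and the hepatocyte sums of Atg7-KO livers lie below them.

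Other genes overlap several of the markers on the opposite strand, and the strand setting of the counting is not given in the sources used here, so reads of the partners cannot be told apart. These partners are Gm43449 for Afp, Gm27483 and Gm27786 for H19, Igf2os for Igf2, Gm14582 and A630012P03Rik for Gpc3, Malsu1 and Gm18010 for Igf2bp3, Naa35 for Golm1 and Gm16144 for Anxa2. Cd24a shares 1.1% of its read-length stretches with Gm6212, and H19 shares 0.365% with Mir675, which lies within it.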

How the data were processed

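Whole-liver poly(A) RNA of 3 mice per genotype was analysed. The deposited table holds expected counts, estimated by the authors with RSEM from single-end reads that STAR had mapped to mm10 (Trim Galore is named in the submitters' processing notes), without scaling for depth. Versions, annotation and strand setting are not given in the sources used here, and the labels and the methods name different RNA extraction reagents. Columns were assigned by genotype and mouse number. Of the values, 7.46% to 9.26% were not whole, and all were rounded to whole numbers. Another 3 labelled mice had no column analysed here.

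Genes were filtered with filterByExpr, scaled by TMM and tested with glmQLFTest in edgeR 4.0.16 (R 4.3.3), with the 9 mice in 1 fit and genotype as the only term. DESeq2 1.42.0 and Python 3.11.15 with numpy 2.4.6, scipy 1.17.1 and matplotlib 3.10.9 were also used. Both cutoffs for a call, 0.05 for the FDR (Benjamini-Hochberg) and 1.5 for the fold change, were taken from the study. The p-values set each difference between genotypes against the spread between mice of a genotype, estimated over the 3 genotypes together. That spread holds any difference between the mice numbered 1 and the others, and libraries of 1 genotype differed by more than sampling noise. The fit was tested on simulated data for Atg7-KO against cont, where it recovered 99.5% of 200 genes changed 4-fold and called 15 of 13488 unchanged genes. The simulated data had the same dispersion of 0.08 for every gene, and genes with a low mean count were not among the 200 changed. In the livers themselves 6080 genes were called in this comparison. These rates therefore check the working of the fit and do not give error rates for the livers or for genes with few counts. Positions and lengths are from GENCODE on GRCm38, promoters from RefSeq on GRCm38.p6. Intervals and floors cover counting error only.

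The members and the gene lists were chosen with earlier results of these data known. Besides the members, named genes are the 2 called genes with the largest rise and the 2 with the largest fall of each list in Atg7-KO against cont, all genes of the albumin family and of the regulators (1 of them is not reported here), the 3 genes nearest in pattern to each member, Atg7 and Xist. Alternatives were DESeq2, its size factors in edgeR, upper-quartile scaling, a minimum of 10 counts in every mouse, testing without a filter, FDR alone, the mouse number as a replicate block, library sizes without the top 20 genes, the mice numbered 2 and 3 alone, and each mouse left out in turn.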

Additional observations from a re-analysis of the deposited data

How the results depend on the processing

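Of the 30 fold changes of the 10 markers, 21 kept their call and direction in every alternative. With each mouse left out in turn, 9 markers were called in Atg7-KO against cont, 7 to 9 in Atg7-KO;p62T352A against Atg7-KO and 2 to 4 in Atg7-KO;p62T352A against cont. At a minimum of 10 counts in every mouse 4 markers were tested and 4 were called in each of the first comparisons, and 3 Ly6 genes and 1 glypican were called in Atg7-KO against cont. That glypican was Gpc1 (FDR = 0.0492), which was not called under edgeR's own filter, while Gpc3 and Gpc6 were no longer tested. Calls in Atg7-KO against cont numbered 11 for the imprinted genes with the mice numbered 2 and 3 alone and 11 without cont replicate 1, and 2 for the regulators without Atg7-KO replicate 2 (ranges over single mice left out 6 to 11 and 2 to 6). The cause was not tested.

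The mouse numbers pair no mice in the labels, but they go with Xist, which was low in the mouse numbered 1 of each genotype. Deviations from the genotype means correlated on average by 0.223, -0.0303 and 0.247 among mice numbered 1, 2 and 3, and 5 of 9 mice correlated best with their own number. With the replicate block, 9, 9 and 2 markers and 5753, 6994 and 988 of all genes were called, against 6080, 7095 and 1613 without it. With the mice numbered 2 and 3 alone 2975 genes were called in Atg7-KO;p62T352A against cont, without Atg7-KO;p62T352A mouse 3 there were 435, and without cont mouse 1 there were 3245. Upper-quartile scaling moved the median of all genes to 0.08 in Atg7-KO against cont (3366 higher, 2581 lower) and to -0.13 in Atg7-KO;p62T352A against Atg7-KO (2897 higher, 4141 lower). H19 was called in Atg7-KO;p62T352A against cont by DESeq2 (FDR = 0.0498).

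Log2 differences not called with all mice changed sign in some alternatives. In Atg7-KO against cont, Igf2 gave -0.0895 to 0.92 over single mice left out (turned without cont mouse 1). Zhx1 gave -0.0797 to 0.80 over single mice left out (turned without cont mouse 2 or cont mouse 3, called higher without cont mouse 1). Zhx2 gave 0.0406 with upper-quartile scaling, 0.0212 with at least 10 counts, 0.00451 with the replicate block, 0.28 with mice 2 and 3 alone and -0.32 to 0.38 over single mice left out (turned without cont mouse 1 or Atg7-KO mouse 2). Zhx3 gave 0.0471 with upper-quartile scaling, 0.027 with at least 10 counts, 0.35 with mice 2 and 3 alone and -0.26 to 0.24 over single mice left out (turned without cont mouse 1 or Atg7-KO mouse 1). Foxa3 gave 0.0139 with mice 2 and 3 alone and -0.66 to 0.0517 over single mice left out (turned without cont mouse 1, called lower without cont mouse 3). Trp53 gave -0.0866 with mice 2 and 3 alone and -0.13 to 0.14 over single mice left out (turned without cont mouse 1 or Atg7-KO mouse 3). In Atg7-KO;p62T352A against Atg7-KO, Foxa1 gave -0.13 to 0.0554 over single mice left out (turned without Atg7-KO;p62T352A mouse 3). Trp53 gave -0.0575 with upper-quartile scaling, -0.0262 with mice 2 and 3 alone and 0.0201 to 0.19 over single mice left out. In Atg7-KO;p62T352A against cont, Afp gave -0.14 to 0.36 over single mice left out (turned without cont mouse 2). Cd24a gave 0.44 with mice 2 and 3 alone and -0.46 to 0.19 over single mice left out (turned without cont mouse 1 or Atg7-KO;p62T352A mouse 1).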
